A study of Canis lupus familiaris with 10 samples.

Results

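The genes of major histocompatibility complex (MHC) class I and of its peptide loading were compared between early and late canine cutaneous histiocytoma (CCH). This tumour of the skin, benign in most dogs, grows from Langerhans cells, the antigen-presenting dendritic cells of the epidermis. The members were all rows named DLA- followed by a digit, together with B2M, TAP1, TAPBP and NLRC5. These were 7 of the 800 genes of the nCounter Canine IO Panel, namely DLA-12, DLA-64, DLA-79, B2M, TAP1, TAPBP and NLRC5, and TAP2 was not analysed here. The early stage was group 1 of the Cockerell and Slauson scheme and the late stage was group 3, the stage rich in lymphocytes. Each stage had 5 tumours (early 1 to 5 and late 1 to 5), each from a different dog and archived as a formalin-fixed, paraffin-embedded (FFPE) block, with no treatment named in the labels. The dogs with early tumours were 0.5 to 5.0 years old where an age was given (4 of 5), with 3 males and 1 female. The dogs with late tumours were 1.5 to 9.0 years old, with 4 males and 1 female. RNA came from whole tumour cross sections after adjacent tissue had been trimmed away, so that a value covers tumour cells and infiltrating cells together. In such bulk RNA, fewer cells of a type and less RNA per cell cannot be told apart.

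MHC class I molecules display peptides from inside the cell to CD8 T cells and are also read by receptors of natural killer cells. A class I molecule is a heavy chain, encoded in the dog by DLA genes, paired with the invariant light chain beta-2-microglobulin (B2M). Peptides cut by the proteasome are pumped into the endoplasmic reticulum by the transporter associated with antigen processing (TAP1 and TAP2), tapasin (TAPBP) holds the empty class I molecule at this transporter while it is loaded, and NLRC5 is the transactivator that drives transcription of class I genes. Interferon gamma, acting in part through the transcription factor IRF1, is a known inducer of most of this pathway.

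Depth, RNA quality and cartridge differed between the stages. Recovered barcode counts, the whole counts behind the normalized values, summed to 484696 to 823763 per early tumour and to 945399 to 1253083 per late tumour. DV200, the percentage of RNA fragments over 200 nt, was 64.5 to 71.2 in early and 71.2 to 75.8 in late tumours. The ratio of the strongest spiked-in control to the next strongest was 2.09 to 2.17 in early and 2.72 to 2.84 in late tumours. Both ranges lay below the ratio of the nominal amounts of these controls. These control signals were thus not read in proportion, to a degree that differed between the stages. Per the study's sample sheet each stage was run on a cartridge of its own, so that stage and cartridge cannot be told apart. All 10 T cell markers of a list passed the Benjamini-Hochberg (BH) threshold of the stage test towards the late stage, as 27.3% of all tested genes did, and their summed level was 576 to 10514 normalized counts in early and 16162 to 25837.5 in late tumours. Within the early group this sum was 8261 in early 4 and 10514 in early 3 against 576, 1326 and 2917 in early 1, early 5 and early 2. Of the Langerhans cell markers, CD207 (langerin) was above background in only 1 tumour of each stage, whereas CD1A6 was above it in 4 early and 5 late tumours. FLT3 and FCER1A, further dendritic cell markers, were called higher in early CCH (log2 fold change of early over late 2.49 and 2.44, limma BY adjusted p = 0.0102 and 0.0353). CD83, CCR7 and XCR1 passed the BH threshold towards the late stage (-1.30, -1.68 and -1.60, limma BH adjusted p = 0.0109, 0.0170 and 0.0359). The summed level of the 9 Langerhans and dendritic cell markers was 1883 to 5752 in early and 2065 to 4419 in late tumours, and the part of these markers in the class I differences was not tested. Every member was at least 10.4 times the background of negative probes in every tumour. The lowest recovered count of a member was 200, which gives a counting error of 7.07%.

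Of the 7 class I and loading genes, 3 were called higher in late CCH, and these were the heavy chain gene DLA-64, the transporter gene TAP1 and the transactivator gene NLRC5. None was called higher in early CCH. Calls required both a 2-fold change and an adjusted p no higher than 0.05 by the Benjamini-Yekutieli (BY) method, in a limma fit over all 761 tested genes. By this rule 9.2% of all tested genes were called higher in late CCH, 1.97% higher in early CCH and 11.2% in either direction. At a BH adjusted p of at most 0.05 without a fold limit, 4 members passed towards the late stage, the fourth being DLA-12, and none towards the early stage, against 27.3% and 8.41% of tested genes (35.7% in either direction). With the 2-fold limit added to the BH threshold 3 members remained, DLA-64, TAP1 and NLRC5, against 24.7% of tested genes in either direction and 21.6% with higher late values. The 3 called members were those whose stages did not overlap, against 24.6% of tested genes in either direction and 19.2% with higher late values. The median log2 fold change (early over late, so that negative values are higher in late CCH) was -0.50 over the 7 members and -0.18 over all tested genes.

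DLA-64, one of the less polymorphic canine class I heavy chain genes, differed most clearly. Early 1 to early 5 had 999, 1269, 1513, 1878 and 1031 normalized counts of DLA-64, and late 1 to late 5 had 4615, 3858, 4014, 3701 and 3431. The stages did not overlap, and the highest early tumour, early 4, stayed well below the lowest late tumour, late 5. DLA-64 averaged 1338 ± 366 in early against 3924 ± 443 in late CCH (SD, n = 5 each). The fold from the mean log2 difference, as for every fold given with a limma test here, was 3.00 and the ratio of these means was 2.93. The log2 fold change was -1.59 (SE 0.19, 95% interval -2.01 to -1.17, limma BY adjusted p = 0.00543, BH adjusted p = 0.000753). DLA-64 was called in each of the 10 fits that left out a single tumour. Its BY adjusted p ranged from 0.00147 to 0.445 over 25 alternative settings, of which 21 kept the call.

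DLA-12, another less polymorphic heavy chain gene, showed a smaller difference with overlapping stages. Its normalized counts in early 1 to early 5 were 4195, 3903, 4164, 4979.8 and 5279, and in late 1 to late 5 they were 5756, 7899, 6639, 4547 and 7396. Late 4 lay within the early range, and the other 4 late tumours lay above it. Early CCH averaged 4504 ± 592 and late CCH 6447 ± 1335 (SD, n = 5 each), with a log2 fold change of -0.50 (SE 0.17, 95% interval -0.89 to -0.11, limma BH adjusted p = 0.0464, BY adjusted p = 0.334). The BH result of DLA-12 was kept in 6 of 25 alternative settings. It was lost under geometric mean (-0.11, limma BH adjusted p = 0.674), TMM (trimmed mean of M values; -0.31, 0.189) and quantile scaling (-0.34, 0.158). It was kept in 1 of 10 fits that left out a single tumour, the one without late 4 (BH adjusted p = 0.0203), and the other 9 gave BH adjusted p of 0.0521 to 0.104.

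DLA-79, a heavy chain gene that is divergent from the others, varied more between dogs than between stages. The values in early 1 to early 5 were 3804, 1247, 5410.15, 8320.5 and 3829 normalized counts, and those in late 1 to late 5 were 2515, 4179, 8682, 4006 and 4146. The ranges overlapped almost completely, with early 2 lowest and late 3 highest. Within a stage the highest tumour exceeded the lowest 6.67-fold in early and 3.45-fold in late CCH. The log2 fold change of -0.18 had a 95% interval of -1.25 to 0.89 (limma BH adjusted p = 0.805), and it turned to 0.23 without early 2 and to 0.07 without late 3, as well as under other scalings. Differences of 2-fold in either direction were therefore within or near the interval, and similar levels in the 2 stages were not shown.

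DLA88 lies outside the naming rule because its row has no hyphen, but it is the highly polymorphic classical class I gene of the dog and belongs beside the heavy chains. Early 1 to early 5 had 6457, 5185, 6482, 4607 and 5360.4 normalized counts of DLA88, and late 1 to late 5 had 9835, 23962, 25021, 15830.2 and 17505. All late tumours lay above all early tumours, with late 1 nearest to the early range. The log2 fold change was -1.65 (SE 0.25, limma BY adjusted p = 0.0120), a 3.14-fold difference. Canine class I genes are close in sequence and carry many alleles, and whether the probes read each gene and each dog's alleles alike was not tested.

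**Figure D1:**
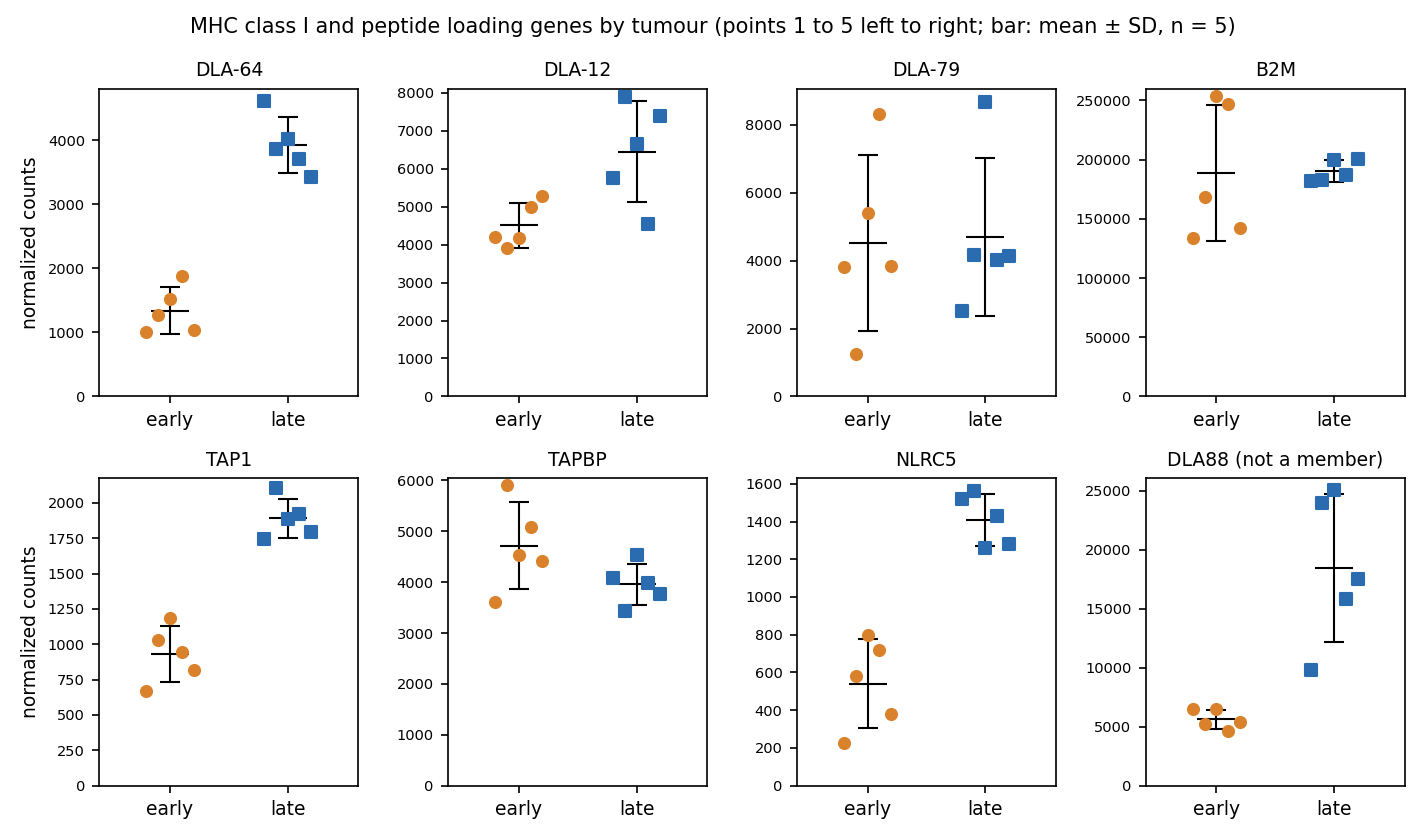
Normalized counts (y axis, linear, from 0) of the 7 class I and loading genes and of DLA88 in each of the 5 early (circles) and 5 late (squares) tumours, with the mean and SD. DLA-64, TAP1, NLRC5 and DLA88 have no late tumour within the early range, while DLA-12, DLA-79, B2M and TAPBP overlap, and B2M spans 133544 to 253546 in early but only 181613 to 200858 in late tumours.

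B2M, the light chain shared by all class I molecules, had nearly equal means in both stages. Its normalized counts were 133544, 168193, 253546, 247244 and 142144 in early 1 to early 5, and 181613, 182852, 199288, 186862 and 200858 in late 1 to late 5. The early tumours lay on both sides of the late ones, with early 1, early 5 and early 2 below every late tumour and early 3 and early 4 above every late tumour. The early mean was 188934 ± 57581 and the late mean 190294 ± 9152 (SD, n = 5 each). The log2 fold change was -0.06 (95% interval -0.56 to 0.44, limma BH adjusted p = 0.854), and its sign depended on the scaling and on early 1 and early 5, with 0.05 and 0.03 when these were left out in turn. B2M took the largest share of barcode counts in all 10 tumours, 15.3% to 24.0% in early and 15.1% to 17.2% in late CCH. Probes differ in efficiency, so that this share does not rank B2M mRNA against other transcripts. Whether counts as high as those of B2M were read in proportion in both stages was not tested.

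The spread of B2M between dogs differed in size between the stages. On the log2 scale the SD was 0.44 in early and 0.069 in late tumours, and the ratio of the highest to the lowest tumour was 1.90 in early and 1.11 in late CCH. NLRC5 had an SD of 0.74 in early and 0.14 in late tumours, TAP1 of 0.32 and 0.10, DLA-64 of 0.38 and 0.16, and TAPBP of 0.26 and 0.15. DLA-12 went the other way, with 0.19 in early and 0.32 in late tumours. The median SD over all tested genes was 0.45 in early and 0.38 in late tumours. These spreads are given as a description without a test.

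TAP1, a subunit of the peptide transporter, was about 2-fold higher in late CCH. Early 1 to early 5 had 666, 1031, 1186, 942 and 819 normalized counts of TAP1, and late 1 to late 5 had 1748, 2102, 1883, 1919 and 1797. The lowest late tumour, late 1, was above the highest early tumour, early 3. TAP1 averaged 929 ± 199 in early and 1889.7 ± 137 in late tumours (SD, n = 5 each), with a log2 fold change of -1.05 (SE 0.17, 95% interval -1.41 to -0.68, limma BY adjusted p = 0.0141). The change lay close to the 2-fold limit, and without early 1, which had the lowest TAP1, it was -0.94 and the call was lost. TAP1 passed the BH threshold in 23 of 25 alternative settings and the stricter rule in 17.

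TAPBP, which encodes tapasin, did not follow TAP1. Its normalized counts were 3620.2, 5919.7, 4539.97, 5084 and 4421 in early 1 to early 5, and 4087, 3436, 4533, 3988 and 3765 in late 1 to late 5. The stages overlapped, although 3 early tumours (2, 3 and 4) lay above every late tumour. TAPBP averaged 4717 ± 852 in early and 3962 ± 405 in late tumours (SD, n = 5 each), with a log2 fold change of 0.24 (SE 0.15, 95% interval -0.10 to 0.58, limma BH adjusted p = 0.246). This was the only member with a positive value. It passed the BH threshold towards the early stage under geometric mean scaling (0.63, BH adjusted p = 0.00894) and under TMM scaling (0.43, BH adjusted p = 0.0330), and in none of the other 23 settings.

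NLRC5, the class I transactivator, was 2.85-fold higher in late CCH and varied strongly among early tumours. Early 1 to early 5 had 227, 580.1, 799, 718 and 379 normalized counts of NLRC5, and late 1 to late 5 had 1522, 1563, 1259, 1428 and 1279.99. No late tumour fell within the early range, and early 3 exceeded early 1 by 3.51-fold, whereas the late tumours differed by at most 1.24-fold. NLRC5 averaged 541 ± 237 in early and 1410.3 ± 138 in late tumours (SD, n = 5 each), with a log2 fold change of -1.51 (SE 0.32, 95% interval -2.21 to -0.81, limma BY adjusted p = 0.0396, BH adjusted p = 0.00549). The BY result was close to its threshold. It was kept in 3 of 10 fits that left out a single tumour (early 1, early 3 or early 4) and lost in the other 7, while the BH result was kept in all 10. The log2 fold change of NLRC5 over these 10 fits was -1.69 to -1.24.

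Ratios within a tumour do not depend on a scaling by a single factor per tumour, such as the deposited one. Quantile scaling does alter them. A loss of proportion at high counts would not cancel in the ratios with B2M, and this was not tested. The ratios describe which class I genes changed unequally. All 21 pairs of members were compared by an exact two-sided permutation test on the log2 ratio, for which 0.00794 is the smallest possible p at 5 against 5. This smallest exact p was reached by 7 pairs (BH adjusted over 21 pairs, permutation p = 0.0238), and in these 7 the stages did not overlap. Each of the 7 joined a called member (DLA-64, TAP1 or NLRC5) with an uncalled member (B2M, TAPBP or DLA-12). The 7 pairs thus restate the calls in part. The share of separated pairs over all tested genes was not computed. DLA-64 was lower in early CCH relative to its partner chain B2M, with a log2 ratio of -7.13 ± 0.15 in early and -5.61 ± 0.21 in late tumours (SD, n = 5 each), a difference of -1.52. Relative to TAPBP, DLA-64 differed by -1.82, from -1.84 ± 0.33 to -0.01 ± 0.17 (SD, n = 5 each). Against the other heavy chain DLA-12 the difference was 1.09 for DLA-12 over DLA-64, so that the heavy chain genes themselves did not change in proportion.

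TAP1 and NLRC5 also changed unequally with TAPBP and B2M. The log2 ratio of TAP1 to TAPBP was -2.35 ± 0.24 in early and -1.06 ± 0.22 in late CCH (SD, n = 5 each), a difference of -1.29. B2M over TAP1 was 7.64 ± 0.27 in early and 6.65 ± 0.14 in late CCH (SD, n = 5 each). B2M over NLRC5 differed by 1.45 and TAPBP over NLRC5 by 1.75 between the stages. These 4 ratios were among the 7 that separated the stages.

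The 3 genes called higher in late CCH share that change by their choice, so that the size of the ratio changes among them is a description. DLA-64 over NLRC5 changed by -0.07 (exact permutation p = 0.794) and TAP1 over NLRC5 by 0.46 (exact permutation p = 0.0714). DLA-64 over TAP1 changed by -0.54 (exact permutation p = 0.0317, BH adjusted over 21 pairs 0.0667). DLA-64 over DLA-79 changed by -1.41, a large difference that did not pass after adjustment (exact permutation p = 0.0397, BH adjusted 0.0758). B2M over TAPBP, the light chain against tapasin, changed by -0.30 (exact permutation p = 0.159). Without early 2 the number of pairs past the adjusted threshold was 11 in place of 7.

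**Figure D2:**
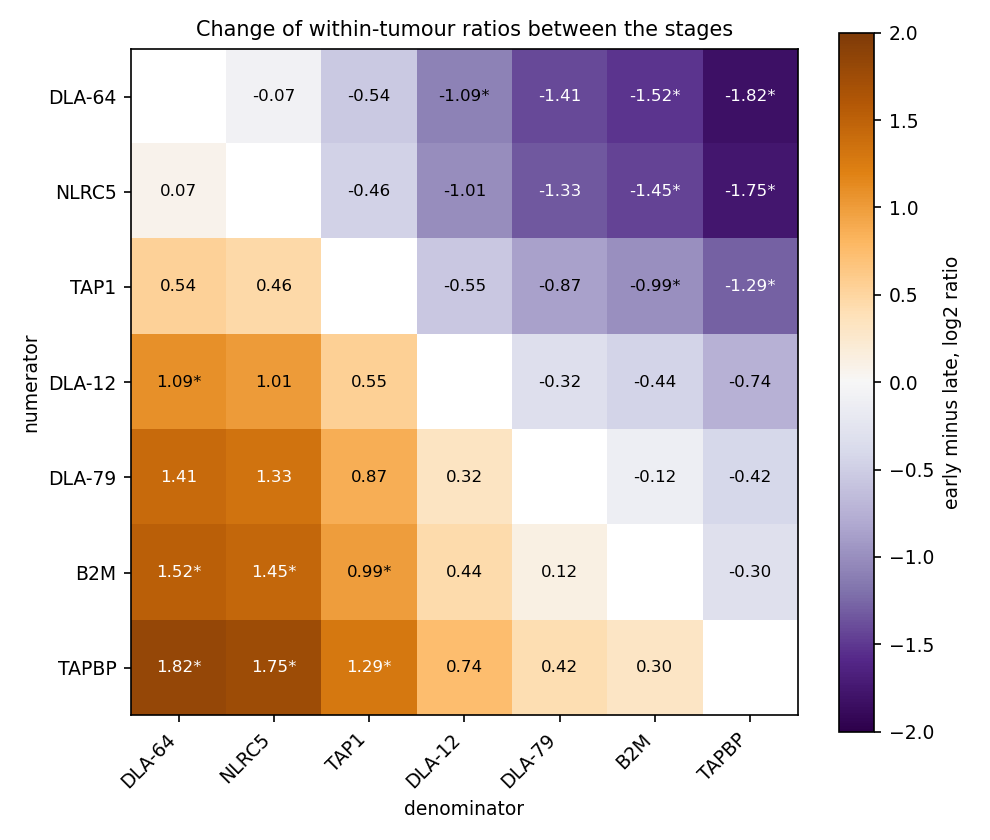
Difference between early and late CCH (colour and printed value, early minus late) in the mean log2 ratio of each numerator gene (rows) to each denominator gene (columns) within a tumour, 5 tumours per stage, with an asterisk where the exact permutation p adjusted over 21 pairs was at most 0.05. DLA-64, NLRC5 and TAP1 over B2M or TAPBP carry the asterisks, from -0.99 to -1.82, with DLA-64 over DLA-12 at -1.09.

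Within the early stage, the class I genes shared the tumour order of the T cell markers to different degrees. CD3E, an invariant chain of the T cell receptor complex, had 42.3, 716, 3402, 2090.4 and 275 normalized counts in early 1 to early 5, and 6134, 5024, 3853, 6011 and 5159.9 in late 1 to late 5. NLRC5 and B2M ranked the early tumours in the same order as CD3E, with early 1 lowest, then early 5, early 2 and early 4, and early 3 highest. DLA-64 had the same order except that early 3 and early 4 changed places. The summed normalized counts of all genes had the order of DLA-64, from 871481 in early 1 to 1105040 in early 4. The part of each tumour's scaling in these shared orders was not tested. For TAP1 and TAPBP early 1 and early 5 were also lowest, whereas DLA-12 and DLA-79 had other orders, both with early 2 lowest. The order was not kept among late tumours, where late 1 was highest in CD3E and DLA-64 but lowest in B2M and TAP1, and where late 3 was lowest in CD3E and NLRC5.

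The genes most like each member were taken by Pearson's r of log2 values over the 10 tumours after the mean of each stage had been removed, given as a description because tumours of a stage share a cartridge and all genes of a tumour share its scaling. NLRC5 was most like CD3E (r = 0.98, and 0.95 without early 1), CD6 (0.98) and CD3D (0.98), all T cell surface genes, of which CD6 and CD3D were above background in 4 of 5 early tumours. B2M was most like CYFIP2 (0.99), ETS1 (0.96) and CD247 (0.96), the last being the zeta chain of the T cell receptor complex, which was above background in only 2 of 5 early tumours, so that its r rests in part on values at background. DLA-64 was most like MAP4K2 (0.98), CTSW (0.95) and OAS3 (0.93). TAP1 was most like CCL20 (0.96, above background in 3 of 5 early tumours), BST2 (0.94) and FASLG (0.93), and TAPBP like IFNAR2 (0.92), VSIR (0.90) and CASP10 (0.89). DLA-79 was most like CD74 (0.96), the invariant chain of MHC class II, followed by ERCC3 (0.91) and JAML (0.89). DLA-12 was most like PTHLH (0.84, above background in 3 of 5 early tumours), ANXA1 (0.83) and ADGRE5 (0.83).

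Between members, the highest values of the same measure were those of TAP1 with NLRC5 (0.90), B2M with NLRC5 (0.85), DLA-64 with B2M (0.83) and DLA-64 with NLRC5 (0.81). DLA-12 had -0.24 to 0.36 against the other members, and DLA-79 had -0.18 to 0.49. The part of the T cells in the stage differences of the class I genes was not tested. Without early 3 and early 4, the early tumours with the highest T cell markers, the log2 fold changes were -1.84 for DLA-64, -1.93 for NLRC5 and -1.19 for TAP1, a choice made after the values were seen. These 2 tumours also had the highest early DLA-64 and NLRC5, so that the differences of both genes had to grow, and the values say nothing on the part of the T cells. B2M then had -0.37 and DLA-79 -0.72, and neither was called.

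**Figure D3:**
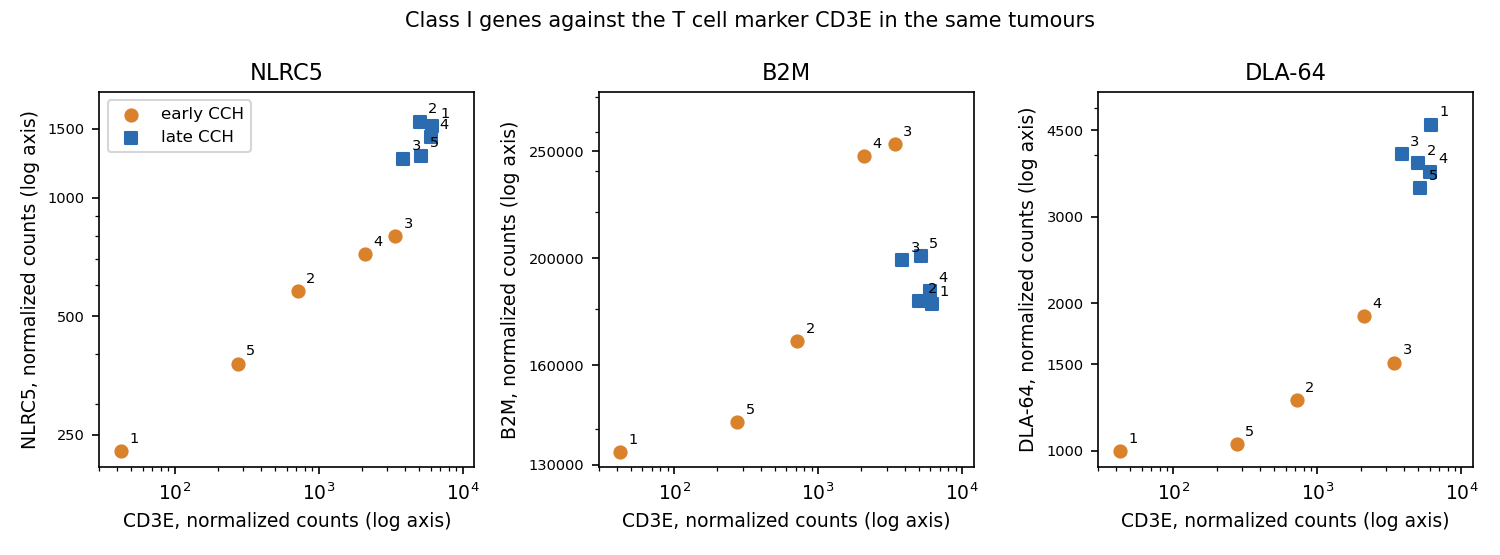
Normalized counts of NLRC5, B2M and DLA-64 (y axes, log scale) against CD3E (x axis, log scale) in 5 early (circles) and 5 late (squares) tumours, numbered by tumour. NLRC5 and B2M run in the order of CD3E among early tumours. Early 3 and early 4 lie near the late tumours in CD3E, above them in B2M and below all of them in NLRC5 and DLA-64.

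Genes next to the pathway were described by lists. Of the peptide supply list 4 of 10 genes were present, and 3 of these passed the BH threshold towards the late stage (27.3% of all tested genes did), with a list median of -1.04 on the log2 scale (early over late) against -0.18 over all tested genes. The immunoproteasome subunit PSMB10 was called (-1.17, limma BY adjusted p = 0.0161), although it fell below the 2-fold limit under geometric mean (-0.78), TMM (-0.97) and quantile scaling (-0.68). PSMB8, another such subunit, had -0.92 (limma BY adjusted p = 0.0353, below the 2-fold limit), and LAP3, an aminopeptidase, -1.16 (limma BH adjusted p = 0.0116). PSMB9, the remaining immunoproteasome subunit, had 0.44 and did not pass (limma BH adjusted p = 0.239).

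Of 14 class I inducers present, 7 passed the BH threshold towards the late and 1 towards the early stage, where 27.3% and 8.41% of all tested genes did, with a median of -0.50 against -0.18 over all tested genes. IRF1, an interferon-induced transcription factor, was the only one called (-1.70, limma BY adjusted p = 0.0161), a 3.25-fold higher level in late CCH. STAT2, which carries type I interferon signals, had -0.94 (limma BH adjusted p = 0.0164). IFNGR1, a chain of the interferon gamma receptor, was higher in early CCH (0.98, limma BY adjusted p = 0.0235), just below the 2-fold limit with the deposited scaling and above it with geometric mean (1.37), TMM (1.17) and quantile scaling (1.27). IFNG itself had -1.66 and did not pass (limma BH adjusted p = 0.0599). NFKB1, whose product is another activator of class I promoters, had -0.05, with a sign that turned under other scalings.

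Of the 10 genes whose products read class I or mark cells that do, 7 passed the BH threshold towards the late stage and 3 were called, against 27.3% and 9.2% of all tested genes, with a median of -1.75 against -0.18. The called genes were KLRK1 (-1.80, limma BY adjusted p = 0.0293), which encodes the receptor NKG2D, LAG3 (-1.85, limma BY adjusted p = 0.0326) and NCR1 (-1.71, limma BY adjusted p = 0.0238). NCR1 was above background in only 1 of 5 early tumours, and its log2 fold change was -1.26 with values raised to the highest background of any tumour. CD8A and CD8B, the chains of the coreceptor that binds class I, had -3.09 and -2.72 with non-overlapping stages (limma BH adjusted p = 0.0205 and 0.0176). NCR3 and KLRF1 had 0.20 and 0.11 and passed no threshold.

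MHC class II, which presents peptides from outside the cell to CD4 T cells, was set beside class I without a test of the difference between them. Of 9 class II genes present, HLA-DRB1 alone passed at the BH level (-0.98, limma BH adjusted p = 0.00723) and none was called (27.3% and 9.2% of all tested genes towards late), with a list median of -0.62. CIITA, the class II counterpart of NLRC5, had 0.26 (limma BH adjusted p = 0.426) against -1.51 for NLRC5. Of the class I-like genes, CD1D had 0.05 and CD1A6 1.07, and neither passed.

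**Figure D4:**
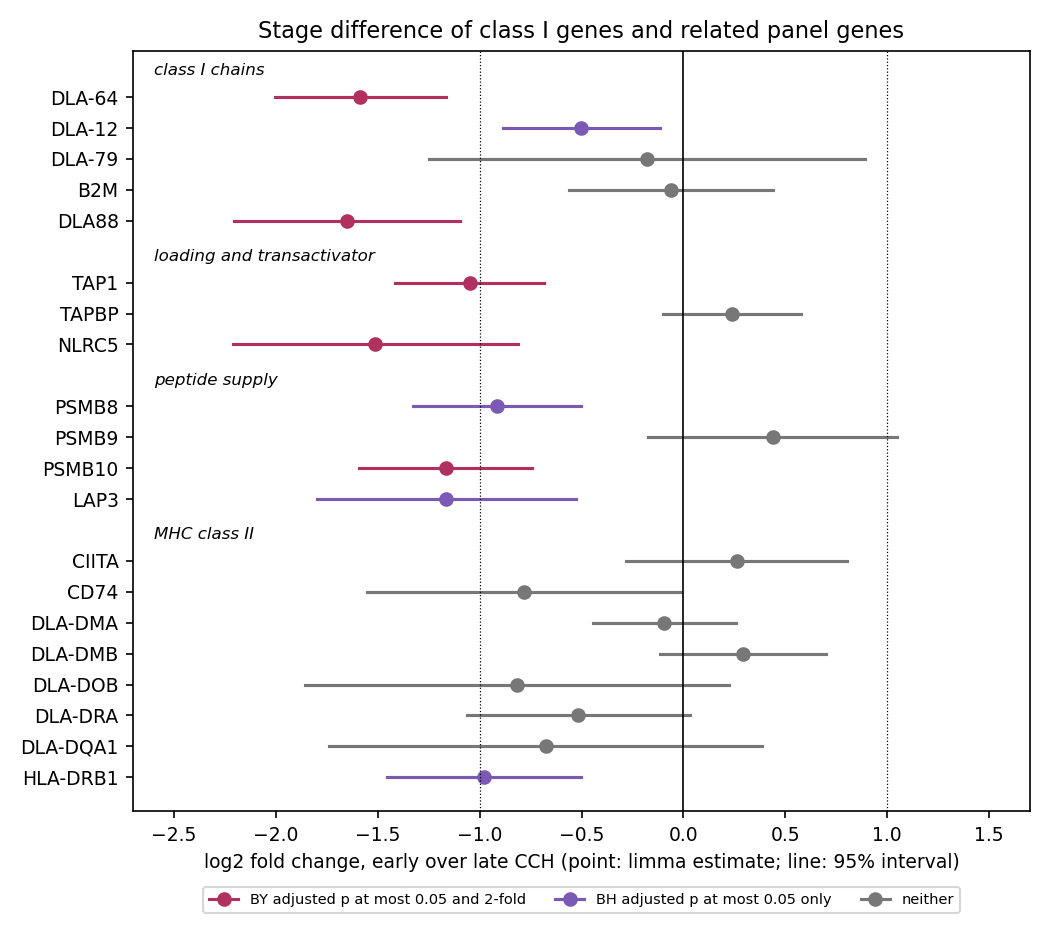
Log2 fold change of early over late CCH (x axis, limma estimate with 95% interval, 5 tumours per stage) for class I genes, loading genes, peptide supply and MHC class II, coloured by the threshold passed, with dotted lines at 2-fold. DLA-64 (-1.59), DLA88 (-1.65), NLRC5 (-1.51), TAP1 (-1.05) and PSMB10 (-1.17) pass the BY and 2-fold rule, while TAPBP (0.24), PSMB9 (0.44) and CIITA (0.26) lie on the other side of 0. DLA-DQB1 was left out because its interval of -5.71 to 4.47 exceeds the axis.

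Geometric mean and TMM scaling each moved all members by nearly the same amount. Quantile scaling moved them unequally, B2M from -0.06 to 0 and NLRC5 from -1.51 to -1.07. Over all tested genes the median was -0.18 on the log2 scale with the deposited housekeeping normalization, 0.21 with geometric mean scaling, 0.01 with TMM and 0.21 with quantile scaling. DLA-64 stayed on the late side of each of these medians, with -1.59, -1.20, -1.39 and -1.28 under the 4 scalings. TAP1 had -1.05, -0.66, -0.86 and -0.65, below 2-fold in the last 3, and NLRC5 had -1.51, -1.12, -1.32 and -1.07. DLA-12 moved from -0.50 to -0.11, -0.31 and -0.34. DV200 as a covariate left no gene called by the BY and 2-fold rule (197 at an unadjusted p under 0.05 in limma), and DLA-64 then had -1.27 and NLRC5 -1.13. The label of late 5 gives a lower DV200 than the study's sample sheet, and with the value of the sheet again no gene was called (165 at an unadjusted p under 0.05 in limma), with -1.28 for DLA-64 and -1.09 for NLRC5.

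**Figure D5:**
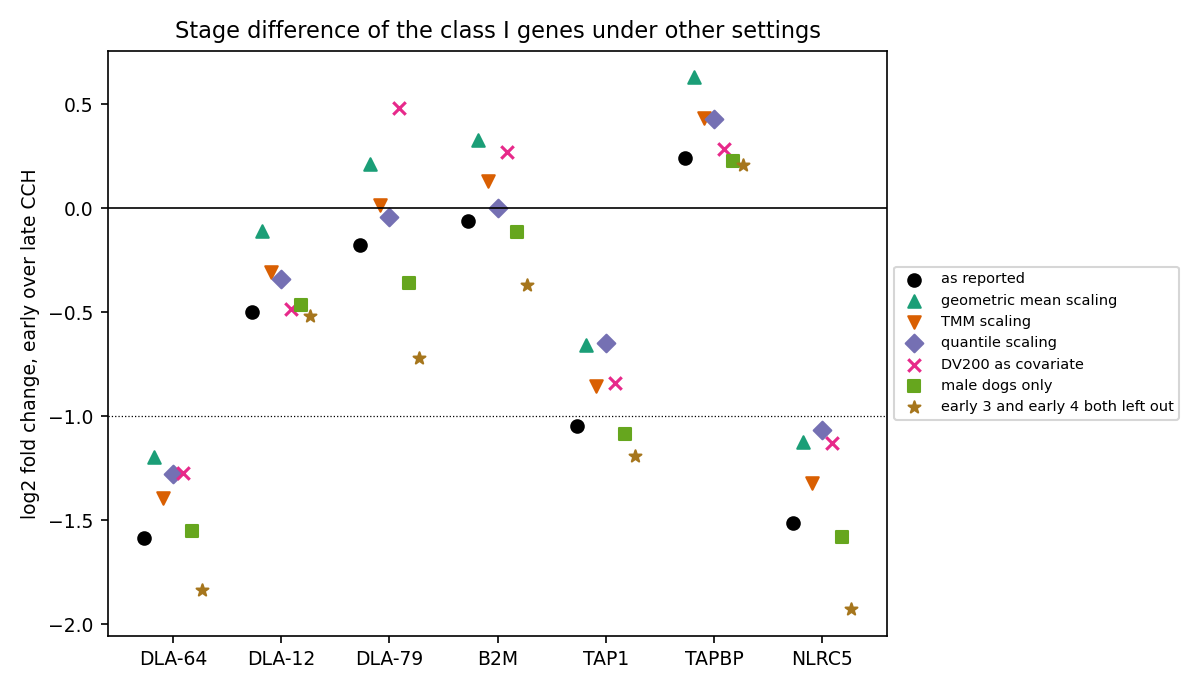
Log2 fold change of early over late CCH (y axis) for each of the 7 genes under the reported setting (black circle) and 6 alternatives, with a dotted line at 2-fold in favour of late CCH. DLA-64 and NLRC5 stay below the line in every setting shown, TAP1 lies on both sides of it, and DLA-79 and B2M lie on both sides of 0.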

How the data were processed

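The authors hybridised total RNA to nCounter barcoded probes and normalized the counts in nSolver 4.0, first to positive controls and then to housekeeping genes. The deposited values are a normalized signal per gene, linear and named normalized counts in the text, with 14 control probes beside 800 genes. No background was subtracted. At least 99.4% of genes in a sample were at whole multiples (tolerance 0.0051) of the worth of 1 barcode count, and dividing by this worth gave the recovered counts, used for depth, background and counting error only. Background was the mean plus 2 SD of the 8 negative probes, which are unscaled counts, multiplied by the worth of 1 barcode count for comparison with normalized counts.

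Genes with a mean of at least 20 (761) were fitted by lmFit and eBayes with trend (limma 3.58.1, R 4.3.3) on log2(normalized count + 1), early against late, with no covariate. Fold changes on this scale understate low genes. Calls used BY adjusted p of at most 0.05 and 2-fold, the study's thresholds, although limma is not the test the authors ran. Control probes were left out. Ratios of members were tested by exact permutation over samples. The limma fit, but not the permutation test, was run on simulated data as a check, with no outcome given here.

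Groups came from the sample titles. The p-values measure the spread between these dogs. Named genes were all members, the genes of the lists next to the pathway, and the 3 genes most like each member. A gene of the inducer list is not reported here by name. Members, lists and tests were chosen with earlier results of these data known. Of the 7 members, 6 matched a RefSeq symbol (DLA-12 did not), and no coordinates are given because the panel was designed on another assembly. Alternatives covered pseudocount, filter, scaling, variance model, DV200, sex, replicate and extraction blocks, a background floor and each sample left out in turn. Marker lists not detailed above were B cell (5 of 7 past BH towards late), Langerhans and dendritic cell (3 of 9 towards late, 2 towards early), macrophage (2 of 8 towards late) and keratinocyte (0 of 4, where 27.3% of all tested genes passed towards late and 8.41% towards early; smallest BH adjusted p by limma 0.154, none under an unadjusted p of 0.05). Figures were drawn with matplotlib 3.10.9.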

Additional observations from a re-analysis of the deposited data

Results flagged for a closer look

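Among 56 sets of 5 values (7 members and 21 ratios in each stage), 4 (7.14%) held a sample far from the other 4 of its stage, where chance gives about 5%. Late 3 had 8682 normalized counts of DLA-79, and the other 4 late tumours had 2515 to 4179, a gap of 0.730 of the range. The log2 ratio of DLA-64 to DLA-79 was 0.025 for early 2, whereas the other 4 early tumours had -2.15 to -1.84 (gap of 0.858 of the range). The log2 ratio of DLA-64 to B2M was -7.39 in early 3 against -7.11 to -7.04 (0.810 of the range). The log2 ratio of TAP1 to TAPBP was -1.94 in early 3 against -2.52 to -2.43 (0.847 of the range).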

How the results depend on the processing

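The number of members called (3) was 1 under geometric mean and TMM scaling and 0 with DV200 as covariate (from the labels or, added after the data were seen, from the study's sample sheet), with male dogs only and with the replicate block. It was 2 to 3 with a sample left out. Members past BH (4) were 1 with DV200, 0 with DV200 of the sheet and 3 to 4 with a sample left out. Under geometric mean and TMM scaling there were again 4, but DLA-12 was lost and TAPBP passed towards early. All genes called (85, with 15 towards early and 70 towards late) were 0 with DV200 (45 past BH and 197 at an unadjusted p under 0.05 by limma), 0 with DV200 of the sheet (26 and 165), 0 in male dogs (135 and 277), 1 with the block, 188 with BH in place of BY, and 39 to 98 with a sample left out, 47 without early 5, 39 without late 1, 48 without late 2, 41 without late 4 and 52 without late 5. The split of early against late calls was 42 to 34 with geometric mean, 27 to 51 with TMM and 47 to 34 with quantile scaling. Pairs past the adjusted threshold (7) were 7 to 11 with a sample left out and 11 without early 3 and early 4.

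DLA-64 kept its sign but lost its call with DV200 (-1.27; sheet -1.28), in male dogs (-1.55) and with the block (-1.59, BY adjusted p = 0.0827 by limma). TAP1 lost its call under geometric mean (-0.66), TMM (-0.86) and quantile scaling (-0.65), with DV200 (-0.84; sheet -0.82), in male dogs (-1.08), with the block (-1.05) and without early 1 (-0.94; -1.14 to -0.94 over all 10 samples left out in turn). NLRC5 lost it under geometric mean (-1.12) and TMM scaling (-1.32), with DV200 (-1.13; sheet -1.09), in male dogs (-1.58), with the block and the background floor (-1.51 each), and with each of 7 single samples left out (range over all 10: -1.69 to -1.24). DLA-79 changed sign under geometric mean (0.21), TMM (0.015), array weights (0.030), DV200 (0.48; sheet 0.63), without early 2 (0.23) and without late 3 (0.07), with -0.46 to 0.23 over all 10. B2M changed sign under geometric mean (0.33), TMM (0.13), array weights (0.021), DV200 (0.27; sheet 0.40), without early 1 (0.050) and without early 5 (0.03), with -0.18 to 0.050 over all 10. The cause was not tested. Same-numbered samples did not deviate together (r from -0.20 to 0.16), so that the numbers do not pair them. Planned count-based tests were not run, because the control probes in the same columns are unscaled counts and so not on the scale of the normalized gene values. Cartridge and stage cannot be told apart.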
